A study of Danio rerio with 15 samples.

Results

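To determine how mpeg1+ cells of juvenile zebrafish without functional csf1r differ from those of controls at 1.5 mpf (months post fertilization), RNA was sequenced from 3 csf1rDM fish and 3 control fish, which are 6 of the 15 samples of the series. The csf1rDM fish were homozygous for the mutant alleles csf1ra j4e1 and csf1rb re01, and the controls were wildtype at both genes. The samples were chosen by their genotype and age labels, and the tests ran over all genes that passed a filter on low counts. All fish carried the tg(mpeg-GFP) reporter, in which the mpeg1 promoter drives GFP. Per the study's methods, cells were sorted by myeloid light scatter, single-cell gates, the dye DAPI and GFP signal. GFP+ cells of the body outside these gates were left out. Each sample was a single whole juvenile, dissociated with trypsin before GFP+ cells were sorted, and its scarce RNA was amplified as cDNA before sequencing. The titles of these samples give an age of 5 months, whereas their stage label gives 1.5 mpf, which is used here. The other samples were 3 il34-/- fish (il34 re03/re03) of the same age, and 3 csf1rDM and 3 control fish at 33 dpf (days post fertilization), all with the same reporter.

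Csf1r is the receptor tyrosine kinase for the cytokines Csf1 and Il34, and its signal keeps many macrophages alive, dividing and migrating. Teleost fish carry a pair of receptor genes, csf1ra and csf1rb. Macrophages clear dying cells and particles with phosphatidylserine receptors, scavenger receptors and complement, and they digest what they take up in lysosomes. The mpeg1 promoter is active in macrophages and also in metaphocytes. The study describes these as ectoderm-derived cells, reported in skin and intestine, that resemble macrophages but express engulfment genes at lower levels. Total RNA of a sorted population cannot tell apart fewer cells of a type from less RNA per cell, and this holds for every level below.

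The deposited counts per library summed to between 8526892 and 11015489 in controls and between 7688093 and 30478713 in csf1rDM fish. Control 1 stood apart, with 20386 genes detected against 14964 and 14686 in the other controls and 15398 to 16860 in csf1rDM fish. It also held the most RNA of gut, liver and pancreas genes, at 3139 CPM (read counts scaled to libraries of equal total) over that marker list, against 548.2 and 338.1 CPM in the other controls and between 91.99 and 162 CPM in csf1rDM fish. Levels are CPM on library sizes scaled by the TMM method, and 3 counts correspond to between 0.104 and 0.405 CPM in the csf1rDM fish. Differences were tested by edgeR's quasi-likelihood test with all 15 libraries in 1 fit and Benjamini-Hochberg adjustment, and a gene was called at an adjusted p under 0.05. Values for fish are given in the order of their replicate numbers, fold changes are csf1rDM over control on the log2 scale with their standard error (SE), and gene symbols in capitals are as the symbol table gives them.

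The receptor genes were examined first. csf1ra was at 198, 115 and 206 CPM in controls and at 0, 0.0346 and 0 CPM in csf1rDM fish, where it was covered by 1 read over the 3 libraries. The groups did not overlap, and the pooled level was 7820-fold lower in csf1rDM fish, with a 95% counting interval of 1400 to 309000 (edgeR, adjusted p = 0.0177). The call was lost without control 3 (adjusted p = 0.0511) and without csf1rDM fish 1, 2 or 3 (adjusted p = 0.0724, 0.121 and 0.0905). csf1rb was at 243, 405 and 213 CPM in controls and at 45.4, 32.7 and 35.5 CPM in csf1rDM fish, again without overlap, but the log2 fold change of -2.93 (SE 0.76) did not pass the test (adjusted p = 0.0842). The il34-/- fish lay between the groups for csf1ra, at 43.7, 24.6 and 71.0 CPM. These are transcript levels, and whether the mutant alleles themselves lower them was not tested. The ligand gene il34 was at 2.83 to 31.4 CPM in the 6 fish, with overlapping groups (log2 fold change 0.11, adjusted p = 0.999), and csf1a and csf1b were at 0 in 2 of 3 controls and at no more than 3.72 CPM in the third.

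The sorted cells of both groups carried leukocyte RNA. The gene that the reporter is built on, MPEG1 (ENSDARG00000055290), was at 3450, 3788 and 3248 CPM in controls and at 7194, 7920 and 4174 CPM in csf1rDM fish, with a log2 fold change of 0.88 (SE 0.24, adjusted p = 0.0971). Its paralogue MPEG1 (ENSDARG00000043093) was at 137, 211 and 238 CPM in controls and at 88.5, 89.6 and 55.0 CPM in csf1rDM fish (log2 fold change -1.33, adjusted p = 0.679). ptprc, which encodes the pan-leukocyte phosphatase CD45, was at 836 to 1021 CPM in controls and at 780 to 786 CPM in csf1rDM fish, without overlap (log2 fold change -0.27, adjusted p = 0.366). Of 20 pan-leukocyte genes tested, 1 was called higher and 1 lower, against 0.437% and 1.2% of all genes. Without overlap, 4 were higher and 8 lower, against 10.5% and 11.6%. The lower call was PTPN6 (log2 fold change -0.66, edgeR adjusted p = 0.0451), lost without any 1 fish (adjusted p from 0.0972 to 0.261). The myeloid transcription factor gene spi1a was at 1797, 1865 and 1896 CPM in controls and at 1635, 1980 and 2180 CPM in csf1rDM fish, so the groups overlapped (log2 fold change 0.06, SE 0.11). IRF8, a transcription factor gene of macrophage development, had a log2 fold change of 0.05 (SE 0.26), and cd74a, the invariant chain that accompanies MHC class II, one of 0.16 (SE 0.19).

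**Figure D1:**
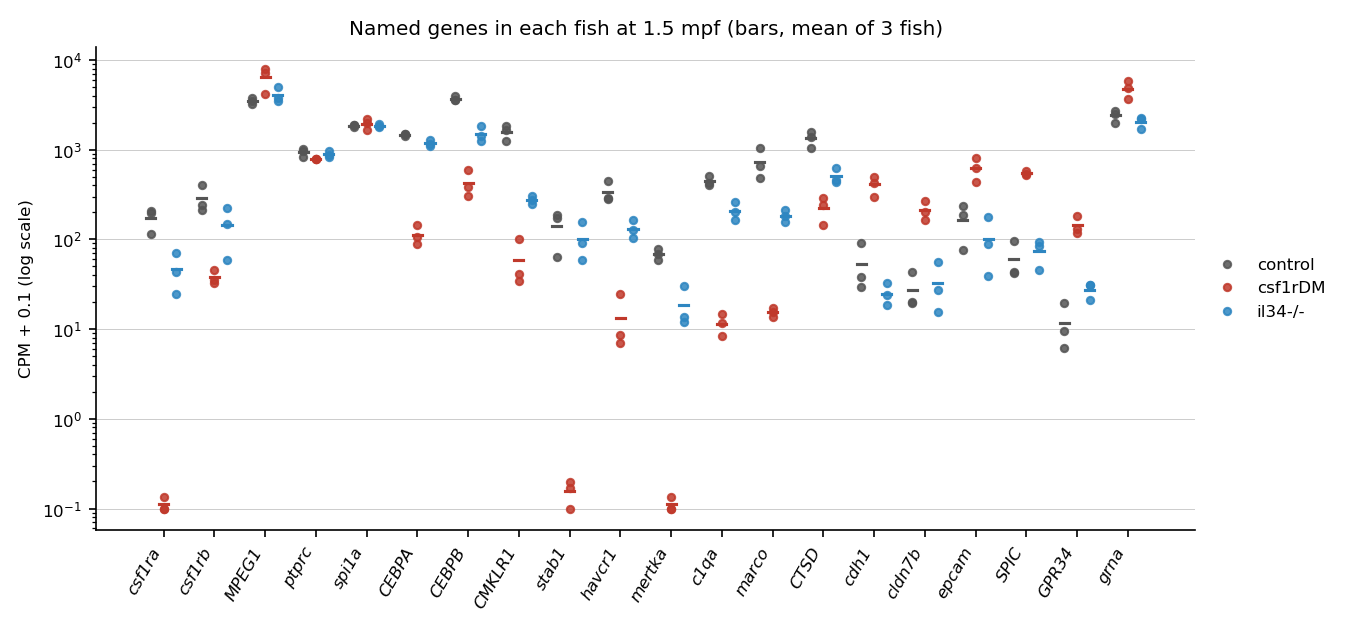
CPM plus 0.1 on a log axis for 20 named genes, with 1 point per fish of the control, csf1rDM and il34-/- groups at 1.5 mpf and a bar at the mean of the 3 fish. csf1ra, stab1 and mertka sit near the bottom of the axis in csf1rDM fish, CEBPA lies at 1109 to 1264 CPM in il34-/- fish but at 89.0 to 144 CPM in csf1rDM fish, and ptprc and spi1a lie at like levels in all groups.

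Of 17640 genes tested, 288 were called between csf1rDM and control cells at 1.5 mpf, which is 1.63% of them. Of these, 77 (0.437%) were higher and 211 (1.2%) were lower in csf1rDM cells, and the 3 and 3 fish did not overlap for any of the 288. No overlap by itself was common, as 3897 genes (22.1%) showed it, 1844 of them higher and 2053 lower. Counts of list members by other criteria are given below. Over all 17640 genes, 2308 had an unadjusted p under 0.05, and DESeq2 called 512 higher and 911 lower. Genes called lower had a median log2 fold change of -2.12 and a median level of 259 CPM in controls and 56.4 CPM in csf1rDM fish. Genes called higher had a median log2 fold change of 1.81, with 76.7 CPM in controls and 283 CPM in csf1rDM fish. Of the 211 lower genes, 35 had at most 3 counts in each csf1rDM fish and 16 had none at all, whereas 1 of the 77 higher genes had no count in any control. The number of calls depended on single fish. It was 219 without control 1, 137 without control 2, 108 without control 3, and 170, 126 and 141 without csf1rDM fish 1, 2 and 3.

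**Figure D2:**
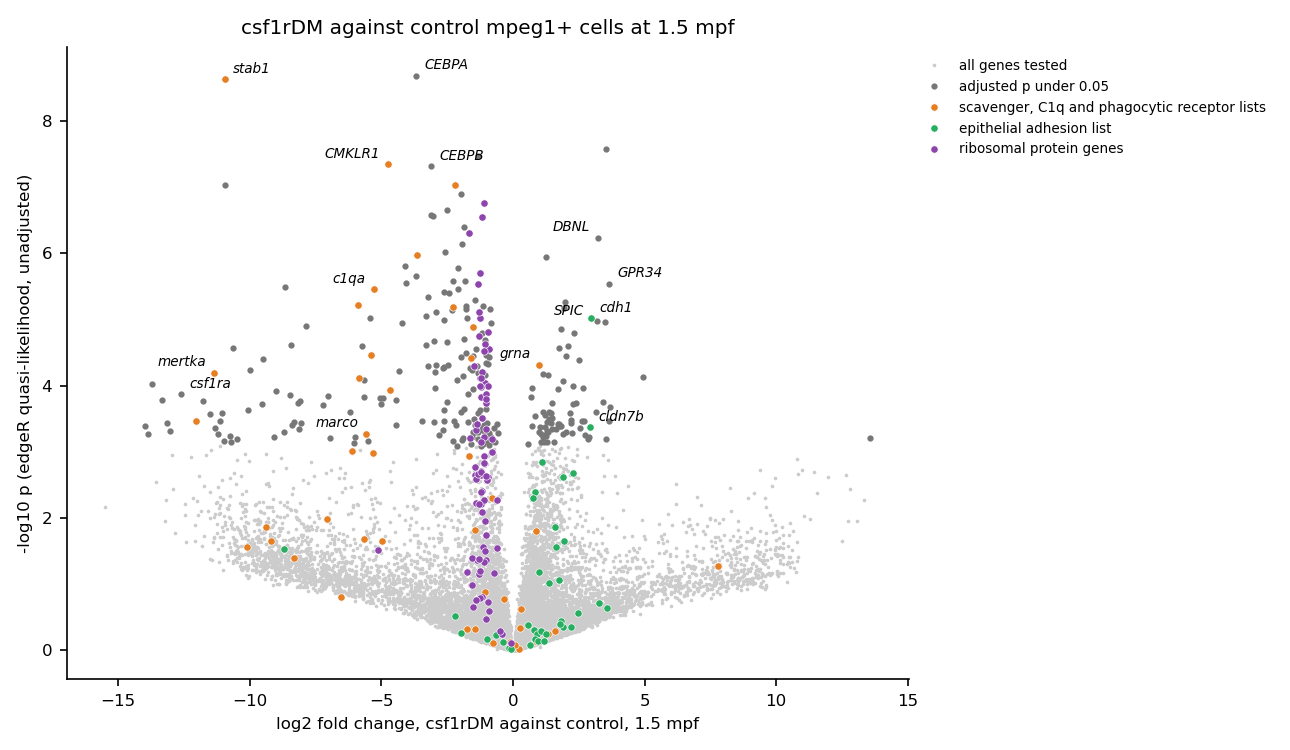
Log2 fold change between csf1rDM and control cells at 1.5 mpf (x axis) against -log10 of the unadjusted p from edgeR (y axis), with 1 point per gene tested. Members of the scavenger, C1q and phagocytic receptor lists (orange) lie mostly on the left, the ribosomal protein genes (purple) in a narrow band near -1.18, and cdh1 and cldn7b of the epithelial adhesion list (green) on the right.

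Among the lower genes with the smallest p were transcription factor genes of the C/EBP family, which drive myeloid gene programs. CEBPA was at 1485, 1420 and 1484 CPM in controls and at 106, 89.0 and 144 CPM in csf1rDM fish. All csf1rDM fish lay far below all controls, a 12.9-fold fall (log2 fold change -3.69, SE 0.26, adjusted p = 2.04e-05 by edgeR). CEBPB fell from 3583, 3539 and 3914 CPM to 303, 595 and 388 CPM, which is 8.59-fold (log2 fold change -3.10, SE 0.28, adjusted p = 0.000142). Both calls held without any 1 fish. These were the only members called among 28 genes tested of the list of myeloid transcription factors, against 1.2% of all genes called lower. The median log2 fold change of the list was -0.29, against 0 over all genes. DESeq2 called 7 lower and 1 higher, against 911 and 512 of all 17640 genes.

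Receptors by which phagocytes recognize dying cells and particles were examined next. stab1, the scavenger receptor stabilin 1, was at 171, 63.2 and 185 CPM in controls and at 0, 0.0692 and 0.0977 CPM in csf1rDM fish, where 3 reads covered it. The pooled level was 2070-fold lower, with a 95% counting interval of 708 to 10100, and the adjusted p was 2.04e-05. mertka, a receptor kinase for apoptotic cells, was at 58.5, 68.3 and 78.5 CPM in controls and at 0, 0.0346 and 0 CPM in csf1rDM fish. With 1 read in the 3 csf1rDM libraries it was 3180-fold lower (counting interval 569 to 126000, adjusted p = 0.0106), but the adjusted p was 0.0538, 0.0743 and 0.0646 without csf1rDM fish 1, 2 and 3. havcr1, of the TIM family of phosphatidylserine receptors, fell from 290, 280 and 443 CPM to 24.3, 6.92 and 8.40 CPM (log2 fold change -4.69, SE 0.87, adjusted p = 0.0161). Its adjusted p was 0.0544 without control 3, 0.0802 without csf1rDM fish 2 and 0.0868 without csf1rDM fish 3. The study's text names these 3 genes as phagocytosis genes that were lower in metaphocytes of adult skin, which is another experiment. They were listed here with earlier results of these data known, so their direction is not independent evidence.

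Of 23 phagocytic receptor genes tested, 6 were called lower and none higher, against 1.2% and 0.437% of all genes. Their median log2 fold change was -1.74, and 15 of the 23 showed lower values in every csf1rDM fish than in any control, as did 11.6% of all genes. Besides the genes above, marco, a class A scavenger receptor, was at 482, 664 and 1048 CPM in controls and at 15.5, 13.5 and 17.2 CPM in csf1rDM fish. The log2 fold change was -5.57 (SE 1.23, adjusted p = 0.0389), and the call was lost without any 1 of the 6 fish, with adjusted p between 0.0587 and 0.166. fcer1gl, named for the signalling chain of Fc receptors, fell in each fish from between 145 and 206 CPM to between 59.9 and 61.2 CPM (log2 fold change -1.50, SE 0.23, adjusted p = 0.00385), a call that held without any 1 fish. havcr2 was at 33.99, 43.2 and 11.9 CPM in controls and had no read in any csf1rDM fish (adjusted p = 0.0323), and it was not called without any 1 of the 6 fish (adjusted p from 0.0582 to 0.116). Without 1 fish, between 2 and 4 members of the list were called, with 2 left without csf1rDM fish 2 or 3, 3 without control 3 or csf1rDM fish 1, and 4 without control 1 or 2.

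The list of macrophage and scavenger genes moved in both directions, with 8 of 22 called lower and 1 higher, against 1.2% and 0.437% of all genes, and a median log2 fold change of -2.98. Without 1 fish, 6 or 7 of them were called lower. CMKLR1, the receptor for the chemoattractant chemerin, was at 1233, 1843 and 1638 CPM in controls and at 101, 40.8 and 34.6 CPM in csf1rDM fish, a 26.8-fold fall (log2 fold change -4.75, SE 0.43, adjusted p = 0.000142). MFAP4 (ENSDARG00000088745), a marker of zebrafish macrophages, fell from 83.6, 123 and 234 CPM to 3.51, 0.588 and 3.62 CPM (log2 fold change -5.86, SE 1.04, adjusted p = 0.0119), with adjusted p from 0.0516 to 0.0543 without control 3 or any 1 csf1rDM fish. Several near-identical copies carry this symbol, so reads could be split among them. The copy ENSDARG00000090783 was at 219, 279 and 216 CPM in controls and at 0, 1.73 and 8.40 CPM in csf1rDM fish (adjusted p = 0.0562). mrc1b, a mannose receptor gene, was at 701, 552 and 360 CPM in controls and at 23.4, 0 and 27.8 CPM in csf1rDM fish, also without passing the test (adjusted p = 0.288). MRC1 had a log2 fold change of -5.67 (edgeR, adjusted p = 0.284). The study's text names itgb7 with CMKLR1 and CEBPB as lower in metaphocytes, but here its log2 fold change was 0.56 (adjusted p = 0.4). For tlr1 and cd83, which that text also names, it was -0.66 and 0.11 (adjusted p = 0.556 and 0.985).

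Components of an amino acid transporter fell together in this list. SLC7A7, the light chain that is needed by microglia in zebrafish, fell from 406, 341 and 375 CPM to 91.1, 46.9 and 91.2 CPM (log2 fold change -2.29, SE 0.32, adjusted p = 0.00271). slc3a2a, a heavy chain partner of such light chains, was at 369, 422 and 492 CPM in controls and at 28.9, 49.2 and 23.2 CPM in csf1rDM fish (log2 fold change -3.66, SE 0.43, adjusted p = 0.000923). The groups did not overlap for either gene, and both calls held without any 1 fish. The list member that rose was grna, a granulin precursor, from 2519, 2709 and 1977 CPM to 4879, 5759 and 3643 CPM (log2 fold change 0.99, SE 0.17, adjusted p = 0.00917). Without csf1rDM fish 2 its adjusted p was 0.053. SLC7A7 was also the member called among 13 microglia genes tested, whose median log2 fold change was -1.34. In the fit used here 1.2% of all genes were called lower. By DESeq2 6 members of that list were lower, against 911 of all 17640 genes. With thinned counts 5 were lower, against 244 of 16790 genes. The 9 libraries at 1.5 mpf gave 4 lower (207 of 15746), and only the libraries compared gave 3 (133 of 14384).

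All 3 genes of complement C1q, which tags dying cells and debris for uptake, fell. c1qa was at 400, 422 and 512 CPM in controls and at 11.5, 14.4 and 8.21 CPM in csf1rDM fish, a 39.0-fold fall (log2 fold change -5.29, SE 0.69, adjusted p = 0.00186). c1qb fell from 615, 785 and 831 CPM to 30.1, 10.5 and 12.9 CPM (log2 fold change -5.39, SE 0.88, adjusted p = 0.00736), and c1qc from 1021, 1166 and 1457 CPM to 23.1, 5.64 and 33.4 CPM (log2 fold change -5.88, SE 0.81, adjusted p = 0.00269). The csf1rDM fish thus held between 30.5 and 64.7 CPM over the 3 genes, against 2036 to 2801 CPM in controls. The calls of c1qa and c1qc held without any 1 fish, and that of c1qb was lost without csf1rDM fish 2 (adjusted p = 0.0506) or 3 (adjusted p = 0.0522).

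Lysosomal genes were tested as a further list. Of 36, 3 were called lower and none higher by edgeR, against 1.2% of all genes called lower, and their median log2 fold change was -0.24. At an unadjusted p under 0.05, 12 were lower and 2 higher, a limit that 2308 of all 17640 genes passed. DESeq2 called 9 lower and 1 higher, against 911 and 512 of all genes. Thinned counts gave 6 lower, against 244 of 16790 genes, and without control 3 there was 1 called higher. CTSD, the aspartic protease cathepsin D, fell 5.92-fold, from 1034, 1398 and 1573 CPM to 290, 242 and 145 CPM (log2 fold change -2.57, SE 0.30, adjusted p = 0.0009). LGMN, the asparagine endopeptidase legumain, fell 4.25-fold, from 2428, 3093 and 3849 CPM to 784, 520 and 899 CPM (log2 fold change -2.09, SE 0.26, adjusted p = 0.00127), and it was also the member called of 11 antigen presentation genes. Both held without any 1 fish. ASAH1 (ENSDARG00000034817), an acid ceramidase, had a log2 fold change of -0.99 (SE 0.22, adjusted p = 0.0445), with adjusted p from 0.0683 to 0.216 without control 2 or 3 or any 1 csf1rDM fish. The machinery that shapes the phagocytic cup inside the cell was examined with 29 engulfment genes, with a median of 0.08. Of these, 1 was called higher and 1 lower, against 0.437% and 1.2% of all genes. At an unadjusted p under 0.05, 5 were higher and 3 lower, and DESeq2 called 4 higher and 2 lower. Without overlap, 7 were higher and 4 lower, against 10.5% and 11.6% of all genes. The GTPase gene rac2 rose from 357, 384 and 305 CPM to 570, 548 and 623 CPM (log2 fold change 0.74, SE 0.14, adjusted p = 0.0151), with adjusted p = 0.0692 without control 3 and 0.0567 and 0.0547 without csf1rDM fish 2 and 3. ELMO1, part of a Rac activator complex, had a log2 fold change of -0.97 (SE 0.21, adjusted p = 0.0332), a call kept without control 1 and lost without each other fish (adjusted p from 0.077 to 0.199).

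**Figure D3:**
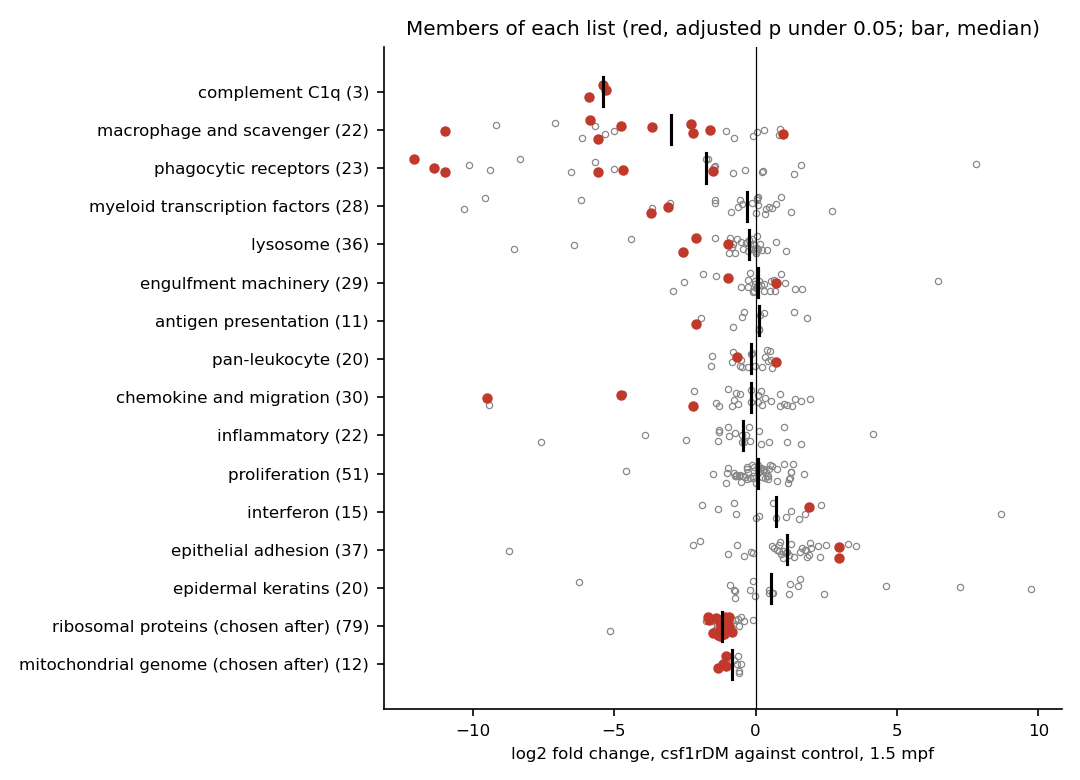
Log2 fold change between csf1rDM and control cells for each member tested of 16 gene lists, with the number tested in brackets, genes called by edgeR in red and the median as a black bar. The C1q, scavenger and phagocytic receptor lists have medians of -5.39, -2.98 and -1.74, whereas those of engulfment machinery (0.08) and proliferation (0.09) lie near 0.

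Chemotaxis and other surface receptors were represented among the lower genes as well. cxcr3.2, a chemokine receptor gene, was at 564, 953 and 895 CPM in controls and at 180, 172 and 175 CPM in csf1rDM fish, a 4.57-fold fall (log2 fold change -2.19, SE 0.21, adjusted p = 0.000205). itgae.1, an integrin alpha gene, varied among controls, at 119, 222 and 710 CPM, but all of these lay above the 1.76, 0.0692 and 0 CPM of csf1rDM fish (log2 fold change -9.49, SE 1.57, adjusted p = 0.00794, and 0.0509 in a fit of only the libraries compared). With CMKLR1, these were the 3 called of 30 chemokine and migration genes, all lower, against 1.2% of all genes, around a median of -0.16. cd4-1, a CD4 gene that is counted among metaphocyte markers and that macrophages of fish also express, fell from 148, 154 and 189 CPM to 33.6, 36.9 and 19.4 CPM (log2 fold change -2.45, SE 0.33, adjusted p = 0.00202). cd22, a sialic acid binding receptor gene on the B cell marker list, was at 62.9, 108 and 46.5 CPM in controls. It was without a read in csf1rDM fish, which is at least 1170-fold lower against a floor of 3 counts over the group. Its adjusted p was 0.0201, and it was called without control 1 but not without any other fish (adjusted p from 0.0511 to 0.0828).

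Other genes with the smallest p among those that fell have more general roles. TGFBI, a secreted matrix protein, fell from 407, 309 and 431 CPM to 56.5, 89.1 and 54.1 CPM (log2 fold change -2.52, SE 0.26, adjusted p = 0.000356). cdc25b, a phosphatase that activates cell cycle kinases, fell from between 214 and 284 CPM to between 54.6 and 71.8 CPM (log2 fold change -1.96, SE 0.20, adjusted p = 0.000249). zgc:64065, dcsignlg and si:dkey-148a17.6 also belonged to these genes, with 52.7 to 81.1, 90.7 to 125 and 152 to 212 CPM in controls and at most 0.135, 15.4 and 26.3 CPM in csf1rDM fish. For zgc:64065, with 1 read in csf1rDM fish, the pooled level was 3000-fold lower (counting interval 538 to 119000). The nuclear RNA malat1 took 17237, 19786 and 22409 CPM in controls and 7630, 7543 and 8546 CPM in csf1rDM fish (log2 fold change -1.33, SE 0.12, adjusted p = 0.000142). These 6 calls held without any 1 fish.

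Genes higher in csf1rDM cells included a transcription factor and surface receptors. SPIC, an ETS factor relative of PU.1 that is known from splenic macrophages of mice, rose from 95.1, 42.2 and 42.9 CPM to 530, 526 and 582 CPM, which is 9.10-fold (log2 fold change 3.19, SE 0.46, adjusted p = 0.00339). GPR34, a lysophospholipid receptor gene that microglia express in mammals, rose from 6.12, 9.33 and 19.2 CPM to 130, 117 and 184 CPM, 12.4-fold (log2 fold change 3.64, SE 0.47, adjusted p = 0.00171). The smallest p among the higher genes belonged to si:dkey-33i11.9, at 149, 97.0 and 62.6 CPM in controls and at 1262, 885 and 1388 CPM in csf1rDM fish (log2 fold change 3.52, SE 0.30, adjusted p = 0.000142). In all 3 genes the lowest csf1rDM fish was at more than 5 times the level of the highest control. Regulators of actin were in this group as well. DBNL, an actin-binding adaptor, rose from 33.7, 29.9 and 18.5 CPM to 137, 310 and 324 CPM (log2 fold change 3.23, SE 0.36, adjusted p = 0.000601), and scinlb, of the actin-severing scinderin family, from 730, 669 and 662 CPM to 1474, 1614 and 1821 CPM (log2 fold change 1.25, SE 0.15, adjusted p = 0.000966). The remaining higher genes of the smallest p were the Arf GTPase regulator asap2b, the vault particle gene MVP, the sulfotransferase gene sult5a1, the heterochromatin gene cbx3b, the endoplasmic reticulum chaperone gene calr3b and the cargo receptor gene TMED5, with log2 fold changes from 1.82 (cbx3b) to 3.48 (sult5a1) and adjusted p from 0.00254 to 0.00605. These 11 calls held without any 1 fish, and TMED5 was not called in a fit of only the libraries compared (adjusted p = 0.0543). calr3b and DBNL were above these controls in il34-/- fish too, at 325 to 521 and 101 to 137 CPM. So were MVP, GPR34 and scinlb, at 368 to 391, 21.1 to 30.6 and 790 to 1138 CPM. For si:dkey-33i11.9, SPIC, asap2b, sult5a1, cbx3b and TMED5, il34-/- fish overlapped with these controls. Controls at 33 dpf held 249 to 595 CPM of calr3b and 102 to 152 CPM of DBNL.

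Genes of cell adhesion in epithelia were examined because the study's text names cdh1, epcam, cldnh and cd4-1 as metaphocyte genes. These did not move one way, as cdh1 was called higher, epcam was not called, cldnh was not matched to an identifier and cd4-1 was called lower. cdh1, the gene of E-cadherin, was at 91.8, 29.1 and 37.99 CPM in controls and at 429, 501 and 297 CPM in csf1rDM fish, with the lowest csf1rDM fish above the highest control. It rose 7.73-fold (log2 fold change 2.95, SE 0.43, adjusted p = 0.00322). The call held without any 1 fish, but the adjusted p was 0.0509 in a fit of only the libraries compared. The claudin gene cldn7b rose from 43.0, 19.9 and 19.2 CPM to 202, 163 and 264 CPM (log2 fold change 2.94, SE 0.63, adjusted p = 0.0348), but was called only without control 1 among the fits that leave out 1 fish, with adjusted p from 0.0662 to 0.158 in the others. epcam, an epithelial adhesion molecule, was at 234, 186 and 76.4 CPM in controls and at 434, 626 and 805 CPM in csf1rDM fish, and its log2 fold change of 1.91 (SE 0.51) did not pass the test (adjusted p = 0.0956). Of 37 epithelial adhesion genes tested, 2 were called higher and none lower, against 0.437% of all genes called higher. Their median log2 fold change was 1.11, 29 of the 37 had a positive one, and 13 were higher in every csf1rDM fish than in any control, against 10.5% of all genes. Summed over the list, controls held 2500, 1816 and 1553 CPM and csf1rDM fish 3861, 5571 and 5840 CPM. Without 1 fish, cdh1 alone was called, except without control 1, where cldn7b was called too, and DESeq2 called 8 higher.

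Keratin genes of the epidermis formed a further epithelial list. None of 20 tested was called by edgeR, with a median log2 fold change of 0.53, while 2 were higher and 2 lower at an unadjusted p under 0.05 and as many in each direction were called by DESeq2. The 2 most abundant keratin genes had negative log2 fold changes without passing the test. krt8 was at 1498, 1852 and 1677 CPM in controls and at 984, 915 and 1119 CPM in csf1rDM fish (log2 fold change -0.74, adjusted p = 0.0541), and krt18b had a log2 fold change of -0.77 (adjusted p = 0.0663). krt4 was at 567, 290 and 194 CPM in controls and at 659, 933 and 775 CPM in csf1rDM fish (log2 fold change 1.17, adjusted p = 0.121). Over the list the csf1rDM fish held 4542 to 5309 CPM and the controls 5992 to 6689 CPM.

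Several other immune programs had few or no calls. None of 18 toll-like receptor genes and none of 22 inflammatory genes was called by edgeR, with medians of 0.18 and -0.43. At an unadjusted p under 0.05 the counts were 3 and 3, and DESeq2 called 2 and 2. Over all 17640 genes, 2308 passed that unadjusted limit and DESeq2 called 1423. Without overlap, 7 inflammatory genes were lower and 1 higher, and 4 toll-like receptor genes were lower and 2 higher, against 11.6% and 10.5% of all genes. The inflammatory genes summed to 2088 to 2344 CPM in controls and to 1373 to 1568 CPM in csf1rDM fish. Of 15 interferon genes 1 was called higher, against 0.437% of all genes, and their median log2 fold change was 0.73. At an unadjusted p under 0.05, 5 were higher and 0 lower, and 5 were higher without overlap, against 10.5% of all genes. DESeq2 called 3 higher, against 512 of all 17640 genes, and a fit of only the libraries compared called 0. The gene called by edgeR was irf1b, from 102, 52.2 and 94.0 CPM to 350, 359 and 207 CPM (log2 fold change 1.88, SE 0.34, adjusted p = 0.0125). It was not called without control 2 (adjusted p = 0.052) or csf1rDM fish 2 (adjusted p = 0.0605). None of 51 proliferation genes was called by edgeR, 5 had an unadjusted p under 0.05, and their summed level was 3587 to 4467 CPM in controls and 4109 to 4247 CPM in csf1rDM fish. CDK1, the kinase of mitosis, was at 56.0, 34.4 and 21.8 CPM in controls and at 41.1, 25.9 and 53.7 CPM in csf1rDM fish. DESeq2 differed in that 2 proliferation genes were called lower and none higher by it. The osteoclast list had 1 of 9 called lower, against 1.2% of all genes. It was ACP5, with a log2 fold change of -1.51 (SE 0.28, adjusted p = 0.0154), which was called without control 1 or 2 but not without control 3 or any csf1rDM fish (adjusted p from 0.0683 to 0.0938). Among immediate early genes, FOSL2 and ZFP36L1 (ENSDARG00000016154) were called lower of 24 tested, against 1.2% of all genes, and none was without control 3 or csf1rDM fish 1. FOSL2, an AP-1 subunit, was at 368, 280 and 305 CPM in controls and at 43.6, 31.7 and 45.6 CPM in csf1rDM fish (log2 fold change -2.98, SE 0.55, adjusted p = 0.0154). FOSL2 was not called without control 3 or any csf1rDM fish (adjusted p from 0.0524 to 0.0802), nor ZFP36L1 without control 3 (adjusted p = 0.0627), without csf1rDM fish 1 (0.0565) or with only the libraries compared (0.0568). None of 27 genes of iron and lipid handling was called by edgeR, with a median of -0.49, while 6 had an unadjusted p under 0.05 and 6 were called by DESeq2.

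A further pattern concerned ribosomal protein genes and was noticed only after their values were seen. Of 79 such genes tested, all 79 had a negative log2 fold change, 32 were called lower, against 1.2% of all genes, and 75 were lower without overlap, against 11.6%. Their median was -1.18. RPL3, a protein of the large subunit, fell from 1779, 2003 and 2122 CPM to 978, 846 and 927 CPM (log2 fold change -1.10, SE 0.11, adjusted p = 0.000312), and RPLP0, of the ribosomal stalk, from 1068, 1025 and 1256 CPM to 518, 450 and 513 CPM (log2 fold change -1.18, SE 0.13, adjusted p = 0.000361). Together these genes held 14390, 14940 and 17680 CPM in controls and 7547, 6340 and 7829 CPM in csf1rDM fish, and 13390 to 15420 CPM in il34-/- fish. The count of calls was 24 without control 1, 16 without control 2, 10 without control 3, and 13, 13 and 17 without csf1rDM fish 1, 2 and 3. The 12 genes tested of the mitochondrial genome were also all negative, with 4 called lower, a median of -0.83 and summed levels of 21410 to 22860 CPM in controls and 11550 to 15240 CPM in csf1rDM fish. The part of these shifts in the other results was not tested. With library size in place of TMM factors 32 ribosomal protein genes were called lower as well.

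Marker genes of some other cells differed between the groups, while the sums for T and NK cells and for B cells overlapped. Connective tissue genes summed to 5207, 3428 and 2037 CPM in controls and to 1341, 1281 and 1151 CPM in csf1rDM fish, and none of 20 tested was called. Gut, liver and pancreas genes were lower in all csf1rDM fish too, as given above, with none of 22 called. Of these, apoa1b, an apolipoprotein gene, was at 1117, 179 and 95.7 CPM in controls and at 10.5, 1.14 and 3.13 CPM in csf1rDM fish (adjusted p = 0.0812). Erythroid genes summed to 335.2 to 470.5 CPM in controls and to 28.4 to 132.7 CPM in csf1rDM fish, and thrombocyte and endothelial genes to 178.8 to 214 CPM and to 13.7 to 43.4 CPM, with none of 11 called in either list. The neutrophil list held 1923 to 2253 CPM in controls and 1559 to 1635 CPM in csf1rDM fish, most of it from the oxidase subunit gene NCF1, which macrophages also express, while the defining lysozyme gene lyz was at no more than 2.76 CPM in controls. Of its 12 members tested 1 was called lower, against 1.2% of all genes. It was ALOX5AP of leukotriene synthesis, which fell from 54.3, 57.7 and 94.7 CPM to 4.19, 0.0692 and 2.64 CPM (adjusted p = 0.0193, and 0.066 without control 3 and 0.0813 without csf1rDM fish 3). T and NK cell genes summed to 3053 to 3138 CPM and to 3094 to 3192 CPM. B cell genes summed to 452.2 to 867 CPM in controls and to 498.7 to 798.9 CPM in csf1rDM fish. Of 16 B cell genes tested 1 was called lower, cd22, whose levels are given above, against 1.2% of all genes. In all 6 fish, cd79a and cd79b of this list were at no more than 12.7 CPM. All 12 dendritic cell genes had a positive log2 fold change, with a median of 0.81, 1406 to 1777 CPM in controls and 2293 to 2711 CPM in csf1rDM fish, and none was called. For the connective, gut, erythroid, thrombocyte and dendritic lists, edgeR gave 6, 7, 2, 4 and 4 members at an unadjusted p under 0.05, and DESeq2 called 1, 5, 1, 3 and 2. The part of these cells in the results above was not tested. Without control 1, the fish with the most gut and liver RNA, 219 genes were called, 181 of them among the 288. The C1q, CEBPA, CEBPB, stab1 and cdh1 calls held. Those of marco, havcr2, SLC3A2, PROX1 and il12bb were among the calls lost (edgeR, adjusted p from 0.0563 to 0.105). The connective, gut, erythroid and thrombocyte sums were above those of csf1rDM fish in the other controls too, so this fit does not test the part of these cells.

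**Figure D4:**
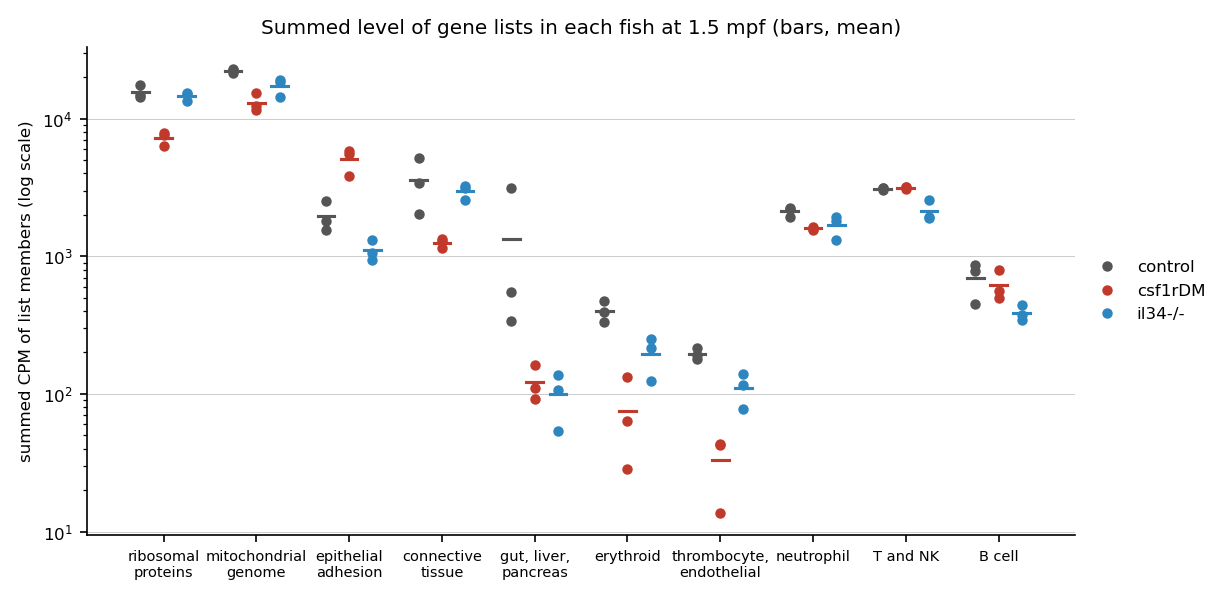
Summed CPM of the members of 10 gene lists in each fish at 1.5 mpf on a log axis, with a bar at the mean of each group. Ribosomal protein genes hold 6340 to 7829 CPM in csf1rDM fish against 14390 to 17680 CPM in controls, and control 1 stands out with 3139 CPM of gut, liver and pancreas genes.

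The same genotypes were sequenced at 33 dpf, in fish that are not shared with 1.5 mpf. Of the 77 genes higher at 1.5 mpf, 69 (89.6%) also had a positive log2 fold change at 33 dpf, against 5191 of all 8773 genes that were positive at 1.5 mpf. Of the 211 lower genes, 182 (86.3%) were negative at 33 dpf, against 5275 of all 8783 negative genes (60.1%). Of the higher genes 49 and of the lower genes 64 were called at 33 dpf in the same direction, where 3.05% of all genes were called (1.71% higher and 1.34% lower), and 1 and 2 were called there in the opposite direction. CEBPA had a log2 fold change of -3.86 at 33 dpf, although its level in controls was only 235 to 333 CPM at that age, and cdh1 had one of 3.64, stab1 one of -11.59 and SPIC one of 3.04. CEBPB had one of -1.87, with 237 to 333 CPM in controls and 57.3 to 103 CPM in csf1rDM fish at 33 dpf. Its 303 to 595 CPM in csf1rDM fish at 1.5 mpf thus overlapped with controls at 33 dpf. csf1ra was less uniform at 33 dpf, with 163, 183 and 177 CPM in controls and 0, 33.9 and 0.0770 CPM in csf1rDM fish (log2 fold change -3.92, adjusted p = 0.2). Of the epithelial adhesion genes, 9 were called higher at 33 dpf, among them epcam and cldn7b.

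The effect of csf1rDM was also compared directly between the ages. It differed for 42 genes (0.238%) by the interaction term in edgeR, 20 with a more positive and 22 with a more negative log2 fold change at 1.5 mpf, and for 13 of the 288 genes called at 1.5 mpf. DBNL was at 102, 152 and 144 CPM in controls and at 126, 182 and 144 CPM in csf1rDM fish at 33 dpf, with overlapping groups (difference of the log2 fold changes 3.05, adjusted p = 0.028). malat1 and cxcr3.2 had log2 fold changes of -0.30 and -0.54 at 33 dpf, which differed from those at 1.5 mpf by -1.02 and -1.65 (adjusted p = 0.028 and 0.043). For SLC3A2 the directions were opposite, with 552, 692 and 550 CPM in controls against 236, 194 and 213 CPM in csf1rDM fish at 1.5 mpf, and 153, 101 and 140 CPM against 363, 163 and 474 CPM at 33 dpf. Its call at 1.5 mpf (adjusted p = 0.0312) was lost without any 1 of the 6 fish (adjusted p from 0.0563 to 0.118). The count of 42 rested on single fish, as leaving out 1 of the 12 gave from 1 to 46 genes, with 1 gene without control 3 at 33 dpf or control 2 at 1.5 mpf, 2 without control 3 at 1.5 mpf, 10 without csf1rDM fish 2 or 3 and 25 without csf1rDM fish 1 at 1.5 mpf, and 20 without control 1 at 33 dpf.

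**Figure D5:**
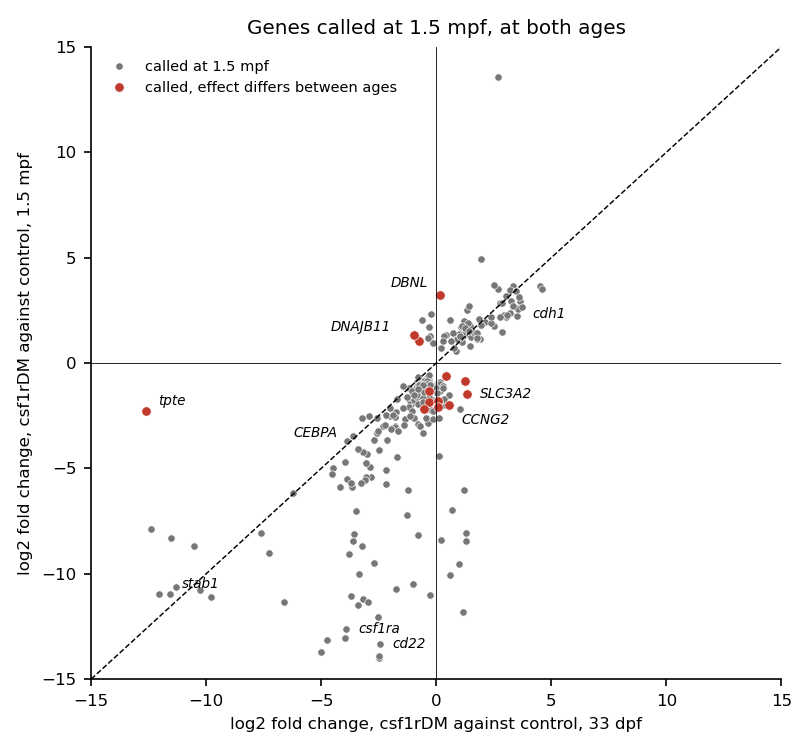
Log2 fold change between csf1rDM and control cells at 33 dpf (x axis) and at 1.5 mpf (y axis) for the 288 genes called at 1.5 mpf, with a dashed line of equal values. The 13 genes whose effect differed between the ages are red, and 251 of the 288 points lie on the same side of 0 at both ages.

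The csf1rDM cells were compared with il34-/- cells of the same age as well. Between these groups 321 genes (1.82%) were called, 153 higher (0.867%) and 168 lower (0.952%) in csf1rDM cells, and this comparison uses the same 3 csf1rDM fish as that with controls. CEBPA was at 1264, 1152 and 1109 CPM in il34-/- fish, so csf1rDM cells were lower by 3.38 on the log2 scale (adjusted p = 3.1e-05). stab1 was at 90.8, 155 and 58.7 CPM in il34-/- fish and c1qa at 162, 260 and 201 CPM, with csf1rDM fish below all of them (adjusted p = 3e-05 and 0.0075). CMKLR1 and marco were below all controls in il34-/- fish too, at 245 to 307 and 155 to 211 CPM. So were CEBPA and c1qa, at the levels just given. CEBPB, c1qb and c1qc were as well, at 1246 to 1851, 305 to 410 and 469 to 577 CPM. The same held for mertka, havcr1, CTSD, LGMN, SLC7A7, slc3a2a, FOSL2 and cd4-1. In all of these genes csf1rDM fish lay below all il34-/- fish. For stab1, TGFBI, cxcr3.2, itgae.1, cd22, ALOX5AP, zgc:64065 and RPL3, il34-/- fish overlapped with controls. Some genes called lower than in controls were not called against il34-/- cells. Among them were ELMO1, ZFP36L1 (ENSDARG00000016154), ASAH1 (ENSDARG00000034817) and ACP5, with log2 differences of -0.008, -0.16, 0.13 and -0.52. Others were havcr1, marco, SLC7A7, CTSD, LGMN and cd4-1, with larger log2 differences, from -0.92 (LGMN) to -3.56 (marco). Their adjusted p by edgeR ran from 0.0571 (CTSD) to 0.151 (marco). Between il34-/- and control cells 121 genes (0.686%) were called. cdh1 was at 32.3, 23.6 and 18.4 CPM in il34-/- fish, which made the difference from csf1rDM fish 4.05 on the log2 scale (adjusted p = 0.00082), and 10 of 37 epithelial adhesion genes were called higher than in il34-/- cells, against 0.867% of all genes. epcam was among them, at 39.0, 88.1 and 176 CPM in il34-/- fish (log2 difference 2.62, adjusted p = 0.024). Among genes higher in csf1rDM cells, those with the smallest p included genes that were nearly without reads in il34-/- fish. si:rp71-36a1.3 was at 223, 311 and 234 CPM in csf1rDM fish and at 223, 269 and 246 CPM in controls, but at 1.83, 2.62 and 0.860 CPM in il34-/- fish, and LTC4S, the leukotriene C4 synthase gene, had no read in any il34-/- fish against 48.8, 148 and 157 CPM in csf1rDM fish and 20.3, 40.4 and 9.06 CPM in controls. Leaving out 1 fish gave between 128 and 217 genes in this comparison, with 128 and 132 without csf1rDM fish 2 and 3, 196 without csf1rDM fish 1, and 142 and 185 without il34-/- fish 2 and 3.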

How the data were processed

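RNA of mpeg-GFP+ cells sorted from single fish was sequenced in 15 libraries, 3 per group. The labels gave each sample's group and replicate number, and each sample was a separate fish. Raw read counts for each Ensembl gene (35117 identifiers) were deposited by the authors in a series table, without normalization. The submitters' processing notes name CASAVA 1.8, cutadapt, STAR 2.5.4b, Cufflinks 2.2.1, HTSeq 0.11.0 and edgeR, and the builds GRCz10 and danRer10. Per the study's methods, STAR mapped the reads to GRCz10 and edgeR tested differential expression. The roles of the other tools, the annotation and whether strand was used in counting are not given in the sources used here, so overlapping, antisense and near-identical genes may share reads. All 15 count columns were used (0 left out), and no libraries held identical counts. A table of gene names gave 27000 identifiers a symbol, of which 4841 share it with another identifier, and 671 of 773 list entries were matched.

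Tests were run with edgeR 4.0.16 under R 4.3.3 (filterByExpr over 5 groups, TMM, 1 coefficient per group, robust quasi-likelihood, no replicate block), which left 17640 genes with a common dispersion of 1.57. SE is the absolute log2 fold change over the square root of F. Total counts per library were 7688093 to 30478713 at 1.5 mpf in these groups. With every library thinned to the smallest, 319 genes were called between csf1rDM and control cells, against 288. Intervals and floors (3 counts, 95%) cover counting error only, since amplified cDNA reads are not independent molecules. The test was also run on simulated data, but the outcome is not given here and no result above rests on it. A gene that was not called is not shown to be unchanged. Figures were drawn with matplotlib 3.10.9.

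Named genes were those of the Csf1 pathway and mpeg1, genes the study's text names for metaphocytes, phagocytosis or macrophages, the 12 genes in each direction with the smallest p, a symbol and no overlap of fish, up to 3 called members of each list in each direction, and the 3 in each direction with the smallest p between ages or against il34-/- fish. The comparison and gene lists were chosen with earlier results of these data known. Ribosomal and mitochondrial lists and the genes mrc1b, slc3a2a, havcr2, krt4, krt8, krt18b, apoa1b, SLC3A2, RPLP0 and all genes named in the closing observations were chosen after their values were seen. Alternatives were RLE or library-size scaling, other filters on low counts, DESeq2 1.42.0, fits of fewer libraries, non-robust estimation, thinned counts, stricter thresholds, the replicate number as a block, and fits without 1 fish. Promoter motifs were not analysed here.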

Additional observations from a re-analysis of the deposited data

Results flagged for a closer look

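For 15 named genes the effect of csf1rDM, the log2 fold change against control, differed between the ages by the interaction term in edgeR at an adjusted p under 0.05. The values are the effect at 1.5 mpf minus that at 33 dpf. More positive at 1.5 mpf were mat2al (12.02), tpte (10.36), TP53BP1 (3.95), DBNL (3.05), DNAJB11 (2.27) and CALR (1.87). tpte and mat2al had no read in any csf1rDM fish at 33 dpf, so the sizes of their differences depend on the prior count of the fit. More negative at 1.5 mpf were arl5c (-3.77), DUSP1 (-2.97), SLC3A2 (-2.83), CCNG2 (-2.52), il10rb (-2.11), cxcr3.2 (-1.65), krt8 (-1.38), actb2 (-1.05) and malat1 (-1.02). In controls, DUSP1 was at 936 to 1533 CPM at 1.5 mpf and at 40.2 to 57.9 CPM at 33 dpf, and arl5c at 326 to 472 CPM and at 3.54 to 7.96 CPM. The count of such genes was 1 when control 3 at 33 dpf or control 2 at 1.5 mpf was left out, and it was 0 with a replicate block.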

How the results depend on the processing

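With edgeR and all 15 libraries, 288 genes were called between csf1rDM and control cells at 1.5 mpf, 321 against il34-/- cells and 42 for the difference between ages. DESeq2 called 1423 (512 higher, 911 lower), 1845 and 1002. A fit of only the libraries compared gave 174 (41 and 133), 184 and 5. An adjusted p under 0.01 with an absolute log2 fold change over 1 gave 93 (15 and 78), 73 and 1, and a test against a log2 fold change of 1 gave 57 (7 and 50), 38 and 1. Fits without 1 fish ranged over 108 to 219 (24 to 72 higher, 82 to 147 lower), 128 to 217 and 1 to 46. For csf1rDM against control, RLE factors (283), library size (300), no filter (247), at least 10 counts in 3 libraries (280), the 9 libraries at 1.5 mpf (290), non-robust estimation (267) and thinned counts (319) stayed within 1.5 times. The cause of the other changes was not tested. For the difference between ages, 52.4% of calls were negative with TMM, 34.5% with RLE and 20% with library size, and for il34-/- 52.3% and 61.3% of calls were lower with TMM and library size. No called gene that was followed reversed its direction. Of 81 genes called between csf1rDM and control cells that were followed across settings, some of them not named in the text, 26 were not called in the fit of only the libraries compared, 11 in that of the 9 libraries at 1.5 mpf, and 5 or fewer under each other scaling, filter on low counts, thinning, non-robust estimation or DESeq2. Ribosomal protein genes called lower numbered between 10 (only the libraries compared) and 66 (DESeq2), for a gene list that was added after seeing the data. The median of all genes moved to 0.12 without control 1 and to -0.10 without csf1rDM fish 2 (log2). Scaling CPM by library size only moved 9 of 162 group means by over 1 SD. Depth limits genes near 3 counts.

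With the replicate number as a block, 121 genes were called against control (22 higher, 99 lower), 120 against il34-/- cells and 0 for the difference between ages, and 26 of the 81 genes were not called. The labels do not say that the numbers pair the fish. Deviations of same-numbered control and csf1rDM fish correlated by -0.022, -0.015 and 0.004, and 2 of the 3 controls correlated best with a csf1rDM fish of another number. Replicate 2 was the deepest library of both groups, at 11015489 and 30478713 counts. Whether same-numbered fish were handled together was not tested, and 3 fish a group cannot decide it.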

Other observations

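The genes below were chosen after their values were seen, and their levels are descriptions beside the edgeR test. Among genes called higher, XCR1 (ENSDARG00000054847), a chemokine receptor of cross-presenting dendritic cells in mammals, was at 98.4, 90.9 and 61.4 CPM in controls and at 289, 298 and 250 CPM in csf1rDM fish (log2 fold change 1.74, SE 0.28, adjusted p = 0.00634), and it was called without any 1 fish. Of the dendritic list none of 12 was called by edgeR (4 at an unadjusted p under 0.05, and 2 by DESeq2), and its members flt3 and ZBTB46 had adjusted p of 0.325 and 0.456. il12bb, an interleukin 12 subunit gene, rose from 24.0, 9.91 and 11.2 CPM to 112, 196 and 212 CPM (log2 fold change 3.53, SE 0.79, adjusted p = 0.0425), but was not called without any 1 fish (adjusted p from 0.0598 to 0.191). PROX1, a homeobox factor of lymphatic endothelium, was at 192, 276 and 88.8 CPM in controls and at 643, 683 and 749 CPM in csf1rDM fish (adjusted p = 0.0389, and above 0.05 without each fish except control 2). CTNND1, the catenin that binds cadherins, rose from 6.49, 0.486 and 8.05 CPM to 113, 267 and 81.9 CPM (log2 fold change 4.95, SE 0.87, adjusted p = 0.0116), and the claudin gene cldn3c from 332, 177 and 148 CPM to 852, 1119 and 1473 CPM (log2 fold change 2.39, SE 0.47, adjusted p = 0.0212). CTNND1 was called without any 1 fish but not in a fit of only the libraries compared (adjusted p = 0.0961), and cldn3c was not without control 2 or 3 (adjusted p = 0.101 and 0.11) or csf1rDM fish 2 or 3 (adjusted p = 0.0614 and 0.0735).

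Among genes that fell, selenop, a secreted selenium carrier, went from 2180, 2292 and 4390 CPM to 285, 255 and 157 CPM (log2 fold change -3.67, SE 0.46, adjusted p = 0.00156). f13a1b, a factor XIII subunit gene that macrophages express in mammals, fell from 486, 406 and 818 CPM to 39.0, 9.83 and 42.7 CPM (log2 fold change -4.23, SE 0.62, adjusted p = 0.00345). Both held without any 1 fish. LTA4H of leukotriene B4 synthesis fell from 210, 312 and 279 CPM to 26.8, 8.24 and 5.28 CPM (log2 fold change -4.32, SE 0.75, adjusted p = 0.0104), with adjusted p = 0.0655 and 0.0542 without csf1rDM fish 2 and 3.

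Genes of MHC class II varied strongly between single fish of a genotype. mhc2dab was at 2072, 0.777 and 2622 CPM in controls and at 3613, 5933 and 7052 CPM in csf1rDM fish, and mhc2dga at 1500, 4176 and 1787 CPM in controls and at 5308, 0.519 and 0.293 CPM in csf1rDM fish, and at no more than 0.553 CPM in il34-/- fish. Near-identical copies of these genes may share reads.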
